A study of Mus musculus with 3 samples.

Results

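Plasma cells and plasmablasts, the antibody-secreting end of the B cell lineage, were described here in the mesenteric lymph node, the node that drains the intestine. A barcode (the tag of 1 droplet, usually 1 cell) was a member when it had at least 300 detected genes, at most 10% mitochondrial UMIs, at least 5 UMIs of Jchain, at least 2 of Xbp1, at least 2 of Mzb1, at least 1 over Sdc1, Tnfrsf17, Derl3 and Prdm1, and 0 of Cd3d, Cd3e and Cd3g. A UMI is a tag that counts 1 captured RNA molecule. The members were thus chosen by their UMI counts of these genes, which are described below but support nothing. By this rule 50 of 67002 kept barcodes were members: 18 of 26348 with citrate buffer, 22 of 23331 with free OVA and 10 of 17323 with LysoPS-OVA. Mice received oral citrate buffer (5 mM, in a library whose title calls it an untreated control), 1 µg of ovalbumin (free OVA, a model food antigen) or 1 µg of ovalbumin with lyso-phosphatidylserine nanoparticles (LysoPS-OVA), for 4 weeks. Each group was 1 library made from the pooled nodes of 6 animals, and the labels seen here give no strain, sex or age. The labels name the tissue as lymph node and the cell type as intestinal cells. Of 7 intestinal epithelial markers, 1, 3 and 1 had a UMI in the members of the 3 libraries in that order, which is kept for every set of 3 values below unless named, with a summed level of 5.80, 49.7 and 14.2 CPM (UMIs scaled to a fixed total of all UMIs outside immunoglobulin genes, the scale used for all genes below). With 1 library per group no difference between treatments could be tested, and every interval below is a 95% interval for counting error only.

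When a B cell becomes a plasma cell, the factors Blimp-1 (Prdm1), IRF4 and XBP1 shut down B cell identity and build a large endoplasmic reticulum (ER) that folds and exports antibody. Plasmablasts are the dividing, earlier form. In the gut-draining node many such cells switch to IgA, which is joined into dimers by the J chain (Jchain) and carried across the epithelium, and many leave for the gut wall by way of integrin α4β7 and the chemokine receptors CCR9 and CCR10.

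The 3 libraries held 81559237 to 96616683 UMIs, with a median of 1871 to 4248 UMIs per kept barcode. Between 336 and 364 barcodes of a library (1.24% to 1.61%) also occurred in another library, and 0 of these were members. Scrublet called 7.41% to 16.5% of kept barcodes doublets, and 1 of the 50 members, which were all kept as the rule asks. That member, with citrate buffer, had 1931 UMIs and the weakest isotype call, 3 UMIs of Igha against 2 of the next heavy chain gene.

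Members were rare in each library. They made up 0.0683% of kept barcodes with citrate buffer (0.0405% to 0.108%), 0.0943% with free OVA (0.0591% to 0.143%) and 0.0577% with LysoPS-OVA (0.0277% to 0.106%). The share with free OVA was 1.38 times that with citrate buffer (0.741 to 2.57), and the share with LysoPS-OVA was 0.845 times that with citrate buffer (0.390 to 1.83) and 0.612 times that with free OVA (0.290 to 1.29). All 3 intervals include 1, so no difference in share was detectable at this depth. The values that chose the members sat close to the limits in many cells. Jchain was 5 to 7 UMIs in 3, 2 and 0 members in the 3 libraries, and Xbp1 was exactly 2 UMIs in 7, 2 and 2. Just outside, 2, 10 and 5 kept barcodes failed on an Xbp1 count of 1 alone, and 10, 8 and 11 failed only because none of Sdc1, Tnfrsf17, Derl3 and Prdm1 had a UMI. Of kept barcodes with at least 50 Jchain UMIs there were 12, 29 and 11. At the rate at which Jchain occurred in T-like barcodes (at least 2 UMIs over the 3 Cd3 genes and none of Cd79a), a measure of free RNA, at most 1.01 Jchain UMIs would be expected in any member.

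Marker lists of the lineages of the node were summed over the members. The summed level of the 6 plasma cell markers was 17657, 27176 and 20500 CPM in the members, against 331 to 358 CPM in B-like barcodes (at least 2 UMIs of Cd79a and 1 of Ighd, with no Cd3 UMI). All 6 are genes of the rule, so this level was fixed by it and is no check of the label. The 5 neutrophil markers summed to 0, 2.76 and 0 CPM, and the 9 T cell markers to 145, 35.9 and 21.4 CPM. The rule itself sets 3 of these 9, the Cd3 genes, to 0. The 6 plasmacytoid dendritic cell markers summed to 731, 630 and 819 CPM against 342 to 354 CPM in B-like barcodes. All of it came from 3 of them, Bst2, Ccr9 and Tcf4, while the defining markers Siglech, Cox6a2 and Klk1 had 0 UMIs. The 8 macrophage and monocyte markers summed to 226, 425 and 541 CPM and came from 7, 7 and 3 members, with a highest member at 1999, 7173 and 2957 CPM. Their part in the differences between libraries was not tested. B cell markers remained at 1392, 1094 and 1011 CPM, below the 3170 to 3472 CPM of B-like barcodes, whereas germinal centre markers stood at 510, 765 and 534 CPM against 63.3 to 114 CPM.

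The share of a member's UMIs that came from immunoglobulin genes varied over more than 2 orders of magnitude, from 0.468% to 61.8% with a median of 8.11%. With citrate buffer it ran from 0.943% to 38.5% with a median of 6.75%, with free OVA from 0.468% to 59.4% with a median of 13.0%, and with LysoPS-OVA from 0.480% to 61.8% with a median of 6.42%. The 3 ranges overlapped almost fully. At or above 20% were 2 of 18 members with citrate buffer, 9 of 22 with free OVA and 4 of 10 with LysoPS-OVA. Jchain, too, had its highest median with free OVA. It ran from 6 to 450 UMIs with a median of 45 with citrate buffer, from 7 to 1757 with a median of 212.5 with free OVA, and from 23 to 970 with a median of 68.5 with LysoPS-OVA. Total UMIs per member ran from 1756 to 48554, and their median of 11724 was above that of the kept barcodes of each library.

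**Figure D1:**
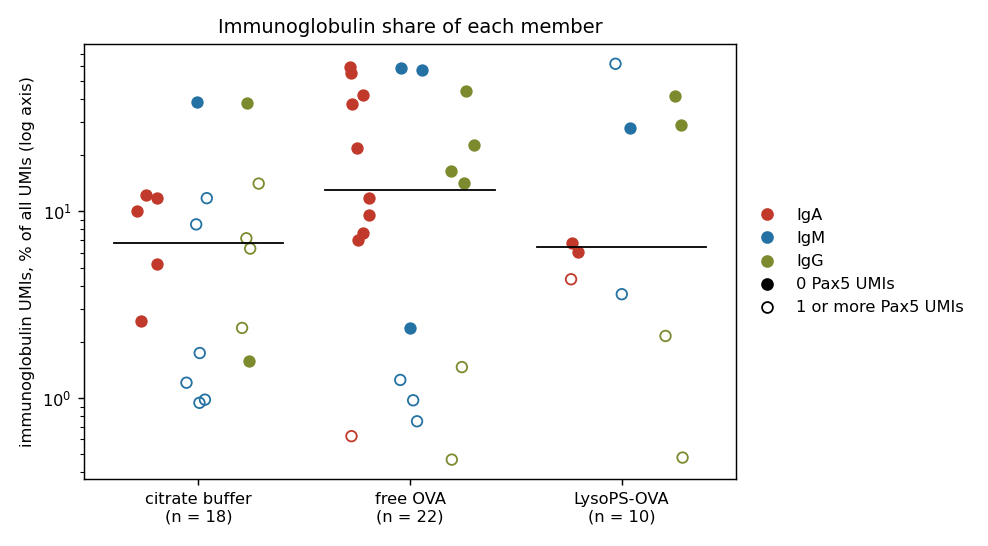
Immunoglobulin UMIs as a percentage of all UMIs (log axis) for each of the 50 members, by library and coloured by heavy chain class; open points had at least 1 UMI of the B cell factor Pax5 and lines mark the library medians of 6.75%, 13.0% and 6.42%. Members with Pax5 lie mostly at the low end, and the 3 libraries overlap.

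By the heavy constant gene with the most UMIs, 18 members were IgA, 16 IgM and 16 IgG, and 0 were IgD or IgE. IgA was the class of 5 of 18 members with citrate buffer (27.8%, 9.69% to 53.5%), 10 of 22 with free OVA (45.5%, 24.4% to 67.8%) and 3 of 10 with LysoPS-OVA (30%, 6.67% to 65.2%). These intervals overlap widely. IgM was the class of 7, 6 and 3 members and IgG of 6, 6 and 4. The IgA members gave the largest single outputs, with a median of 500.5 UMIs of the top constant gene and up to 2092 in a free OVA member, against medians of 70.5 in IgM and 82.5 in IgG members. Jchain likewise had a median of 256 UMIs in IgA, 42 in IgM and 48 in IgG members. These medians lean on free OVA, which holds 10 of the 18 IgA members. With LysoPS-OVA the order was different: the median Jchain count was 24 in IgA, 86 in IgM and 236.5 in IgG members, and that of the top constant gene was 259, 91 and 405. The IgA and IgG members had a similar median immunoglobulin share, 9.86% and 10.6%, and the IgM members 2.99%. Within IgG, Ighg1 led in 4 members, Ighg2b in 6, Ighg2c in 6 and Ighg3 in 0. Ighg2c and Ighg2b are related genes, and in 4 of the 6 Ighg2c members Ighg2b held 33.3% to 62.5% of the Ighg2c count, for example 592 against 947 UMIs in a free OVA member. The other 2 had 171 and 41 Ighg2c UMIs and 0 of Ighg2b. Whether reads were split between the genes was not tested, so the subclass is uncertain in those 4. When the top gene had to have at least 2 times the UMIs of the next, 17 IgA, 14 IgM and 13 IgG members remained assigned.

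Every member expressed kappa as its main light chain constant gene. Lambda was the main light chain in 0 of 18, 0 of 22 and 0 of 10 members, whereas it was so in 15.4% (519 of 3373), 7.36% (291 of 3953) and 5.88% (271 of 4611) of B-like barcodes with a light chain call. Within a library a count of 0 allows a share of up to 18.5%, 15.4% and 30.8%, each above that library's B-like value. A difference was thus not detectable within any library at this depth. Over all 50 members a count of 0 allows up to 7.11%. That is below the B-like values with citrate buffer and free OVA and above that with LysoPS-OVA, and it was not tested. Variable genes lie far from the 3' ends that the kit captures and were called in few members. A heavy variable gene (at least 3 UMIs, no tie) could be called in 16 members and gave 15 different genes, with Ighv1-81 in 2 IgA members, 1 of citrate buffer and 1 of free OVA. A light variable gene could be called in 26 members. Iglv1, a lambda variable gene, led in 9 of these 26 (34.6%, 17.2% to 55.7%) but in 0 of 49, 1 of 104 and 0 of 121 called B-like barcodes. The same 9 members held 184 to 4778 UMIs of the kappa constant gene Igkc against 7 to 139 of the lambda constant genes, so the variable and constant calls do not match. Igkv10-96 led in 3 members, Igkv1-117 in 2 and Igkv1-135 in 2. In the 13 members with both calls the 13 pairs were all different, and no pair was shared.

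Members with a larger antibody share carried more of the export machinery and less of the B cell programme. Over the 50 members, Spearman's rho with the immunoglobulin share was 0.774 for the summed translocon list (the channel, signal peptidase and glycosylation enzymes through which nascent chains enter the ER), 0.665 for ER chaperones, -0.601 for the cell cycle list and -0.445 for the B cell identity list. These are descriptions: the points share libraries, and all values of a member share its depth. Total UMIs gave -0.213. Within libraries the translocon list gave 0.907, 0.718 and 0.624 and the chaperones 0.825, 0.595 and 0.455 in the 3 libraries. The B cell identity list gave -0.501, -0.547 and 0.0424, so that relation was not seen among the 10 LysoPS-OVA members, and the cell cycle list gave -0.110 with citrate buffer against -0.734 and -0.588.

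**Figure D2:**
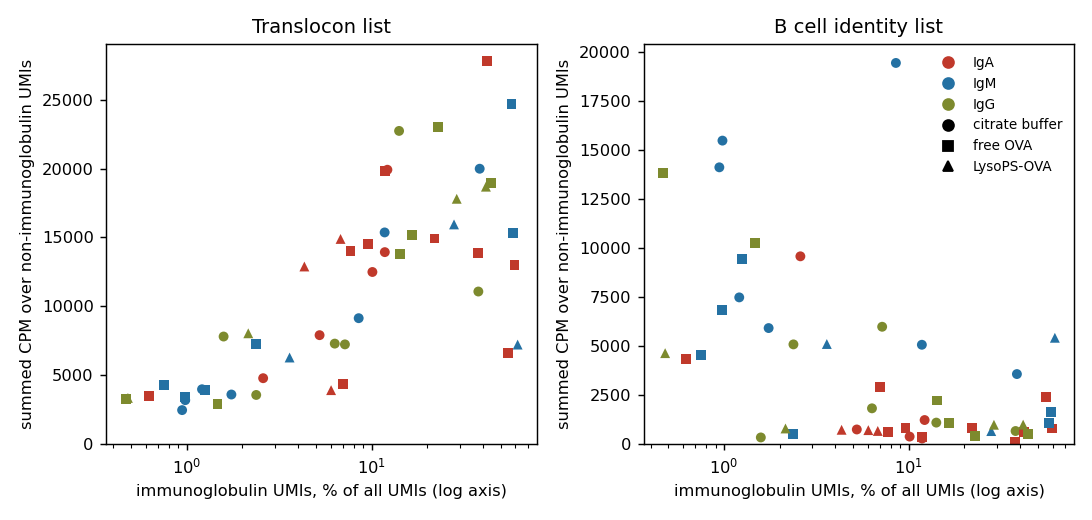
Summed CPM of the translocon list (left) and of the B cell identity list (right) against the immunoglobulin share (log axis) for each member, coloured by class and shaped by library. The translocon list climbs with the share (rho 0.774), and high B cell identity sums lie mostly at low shares (rho -0.445).

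Pax5, the factor that holds B cell identity, divided the members. It had 0 UMIs in 29 of 50 members, 8 with citrate buffer, 16 with free OVA and 5 with LysoPS-OVA, and these had a median immunoglobulin share of 16.5% and a median of 319 Jchain UMIs. It had at least 2 UMIs in 13 members (6, 6 and 1), whose median share was 0.98% and median Jchain count 31. All 13 also had Mki67, a proliferation gene, and 3 to 55 UMIs of Ms4a1 (CD20). With free OVA the 6 members with Pax5 had 18838 to 46568 UMIs in all, an immunoglobulin share of 0.468% to 1.47%, 16 to 55 Ms4a1 UMIs and 4 to 40 Mki67 UMIs. Their Jchain counts were 7 to 54 UMIs. With LysoPS-OVA the single member with at least 2 Pax5 UMIs had 48554 UMIs, 27 of them of Pax5.

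Against B-like barcodes of the same library, the members showed the secretory programme in every library. Of 2076 genes with at least 50 CPM and 30 UMIs in the higher group in each library, 139 (6.7%) were at least 2-fold higher in the members in all 3 libraries and 258 (12.4%) at least 2-fold lower. Among IgA members alone 45 of 1440 genes were higher and 443 lower, and among the 29 members without Pax5 71 of 1593 were higher and 425 lower. The B-like sums came from 3517 to 4673 barcodes per library and the member sums from 10 to 22. The limit of 30 UMIs thus asks for a much higher CPM of a gene higher in the members. This filter favours lower genes, most of all in the smaller sets, and the split between higher and lower is no result. The median gene stood at -0.40, -0.54 and -0.64 on the log2 scale (pseudocount 10 CPM) in the 3 libraries. Among the plasma cell transcription factors 6 of 9 measured genes were higher, with list medians of 3.24, 2.53 and 3.51. These were Xbp1 and Prdm1, which the rule used, Irf4 (2.70, 2.24 and 2.13), Ell2, an elongation factor that favours secreted heavy chain mRNA (3.24, 2.53 and 3.62), Tent5c, which stabilises immunoglobulin mRNA (4.33, 3.99 and 4.34), and Creb3l2 (3.57, 3.17 and 4.12). Pou2af1, a B cell coactivator, gave 1.12, 0.89 and 1.35, and Ikzf3 was at -0.71, -2.03 and -2.38.

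**Figure D3:**
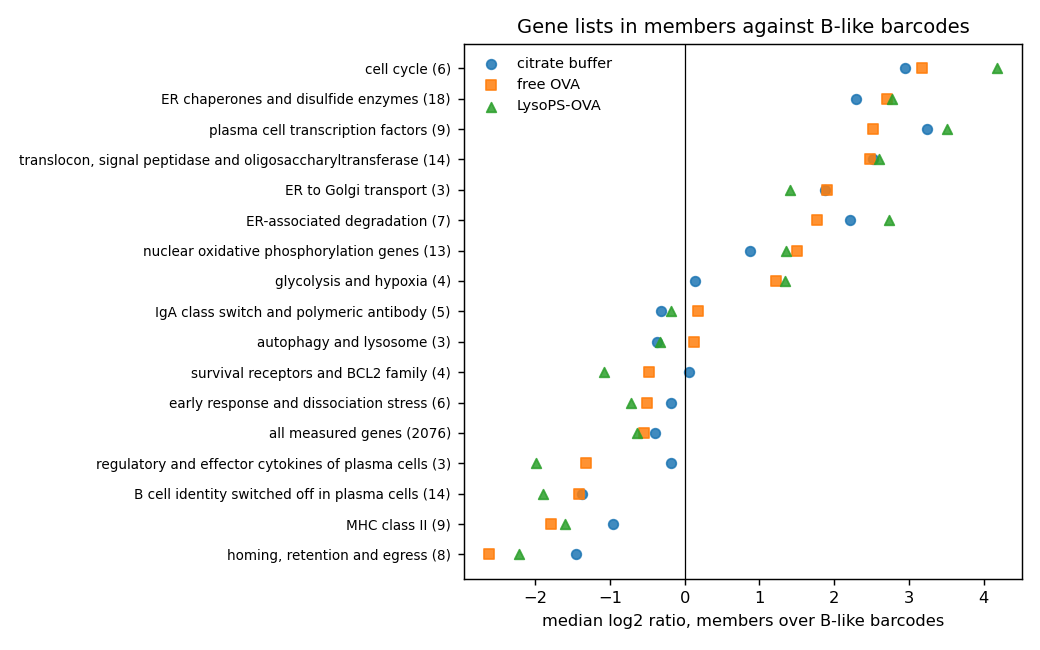
Median log2 ratio of each gene list, members over B-like barcodes, in the 3 libraries; the number of measured genes stands in brackets. Cell cycle, ER chaperone, transcription factor and translocon lists lie between 2.29 and 4.18, and the B cell identity, MHC class II and homing lists lie below the median of all 2076 genes.

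Genes that fold and check antibody were higher almost as a block. In the ER chaperone and disulfide list 16 of 18 measured genes were at least 2-fold higher in all 3 libraries, with medians of 2.29, 2.71 and 2.78. Hsp90b1, the ER form of HSP90, had 0 to 223 UMIs per member with citrate buffer (median 24), 0 to 264 with free OVA (median 22) and 0 to 289 with LysoPS-OVA (median 29.5). Summed over members this made 4053, 3035 and 4081 CPM against 253, 225 and 227 CPM in B-like barcodes. Hspa5 (BiP), which holds unassembled heavy chains, stood at 974, 1317 and 1261 CPM against 200, 183 and 194 CPM. The protein disulfide isomerase Pdia6 gave log2 ratios of 3.20, 3.28 and 3.18, Creld2 3.29, 3.63 and 3.74, Manf 3.35, 3.23 and 3.47, and Txndc5 3.90, 3.75 and 3.31. Calr, a lectin chaperone, gave 2.30, 2.14 and 2.44, and its partner Canx only 1.17, 0.94 and 0.86. ER-associated degradation followed with 6 of 7 measured genes higher (medians 2.21, 1.77 and 2.74), Edem1 at 3.18, 3.39 and 4.02 among them. Derl3, a gene of the rule, is among the 7, so this count and its medians are not free of the rule. The translocon list had 11 of 14 higher (2.52, 2.48 and 2.60) and ER to Golgi transport 3 of 3 (1.88, 1.90 and 1.42). Lman1, a cargo receptor for glycoproteins, gave 3.83, 3.52 and 3.26. Among the 29 members without Pax5, 13 of 13 measured chaperone genes and 7 of 7 translocon genes were higher in all 3 libraries. A gene higher in the members was measured only with 30 UMIs summed over them in each library. With so few members, genes at low levels could hardly enter as higher by less than 2-fold. Counts such as 13 of 13, 7 of 7 and 3 of 3 thus depend strongly on this filter, and the list medians depend on it too.

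Several chaperone genes hold the same short promoter element. XBP1 and ATF6 act through the ER stress response element, CCAAT, then any 9 bases, then CCACG, on either strand. In RefSeq promoter windows of the mouse assembly GRCm38.p6 (250 bases before to 50 after the start), 7 of the 20 chaperone genes with a window held it (35%), as did 2 of 11 ER-associated degradation genes, 0 of 18 translocon genes, 0 of 14 ER to Golgi genes and 0 of 9 transcription factor genes. Of all 27025 genes with a window 37 (0.137%) held it. The 7 were Hspa5, Hsp90b1, Calr, Canx, Pdia6, Dnajc3 and Creld2, of which Canx alone was not 2-fold higher in all 3 libraries. Printed here are Hspa5, with 1 site close to its start, Hsp90b1, the most abundant of them, with 2 sites, Creld2, with a site on the other strand, and Jchain, whose window holds none although its level gave the largest ratios (8.10, 9.02 and 8.83, a gene of the rule). Capitals mark the element, and each line runs 5′ to 3′ along the gene.
Hspa5, chr2:34771840-34772139, plus strand: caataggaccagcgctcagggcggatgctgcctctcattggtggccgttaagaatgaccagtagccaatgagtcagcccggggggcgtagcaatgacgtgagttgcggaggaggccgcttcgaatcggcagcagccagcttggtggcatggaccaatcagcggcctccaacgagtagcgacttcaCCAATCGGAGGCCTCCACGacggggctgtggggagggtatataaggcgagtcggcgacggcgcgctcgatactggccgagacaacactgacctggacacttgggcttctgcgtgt
Hsp90b1, chr10:86705395-86705694, minus strand: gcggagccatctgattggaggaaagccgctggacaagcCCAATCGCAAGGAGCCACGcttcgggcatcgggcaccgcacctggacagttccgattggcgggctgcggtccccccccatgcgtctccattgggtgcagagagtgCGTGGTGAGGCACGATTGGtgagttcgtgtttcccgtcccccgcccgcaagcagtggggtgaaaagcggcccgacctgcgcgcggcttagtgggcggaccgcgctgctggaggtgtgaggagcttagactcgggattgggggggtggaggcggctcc
Creld2, chr15:88819396-88819695, plus strand: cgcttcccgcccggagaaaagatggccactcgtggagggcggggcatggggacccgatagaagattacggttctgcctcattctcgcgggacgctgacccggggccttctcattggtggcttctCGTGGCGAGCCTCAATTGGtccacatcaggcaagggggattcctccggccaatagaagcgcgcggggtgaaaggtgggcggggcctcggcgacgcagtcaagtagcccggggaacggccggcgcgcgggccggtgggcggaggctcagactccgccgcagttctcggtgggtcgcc
Jchain, chr5:88527848-88528147, minus strand: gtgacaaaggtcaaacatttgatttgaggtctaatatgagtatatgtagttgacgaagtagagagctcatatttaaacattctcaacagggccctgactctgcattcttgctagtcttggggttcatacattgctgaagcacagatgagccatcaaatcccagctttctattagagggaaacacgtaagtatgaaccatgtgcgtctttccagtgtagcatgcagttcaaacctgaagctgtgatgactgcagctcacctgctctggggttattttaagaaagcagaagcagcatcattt
Counted from the start, the element lay at -65 to -47 in Hspa5, at -212 to -194 and -107 to -89 in Hsp90b1 and at -126 to -108 in Creld2. A match is a description of the letters in the window and no evidence of binding.

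B cell genes were lower, though unevenly. Of the 14 B cell identity genes 8 were at least 2-fold lower in all 3 libraries, with medians of -1.37, -1.42 and -1.90. Cd22, an inhibitory receptor, gave -1.79, -1.43 and -1.82, Ebf1 -1.40, -1.40 and -2.06, and Ciita, the master factor of MHC class II, -1.42, -2.37 and -1.67. Fcer2a (CD23) had 12, 2 and 0 UMIs in the members against 379 CPM or more in B-like barcodes. Ms4a1 was only -0.45, -0.87 and -0.82. In the MHC class II list 4 of 9 genes were lower (medians -0.96, -1.79 and -1.61). S1pr1, the receptor for egress from the node, gave -1.25, -2.62 and -3.01. Bcl2 gave -2.95, -2.39 and -2.50.

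IgA members carried the gut-homing genes in more cells than the other classes did. Over the 3 libraries Itgb7, the β7 chain of the gut-homing integrin, had a UMI in 12 of 18 IgA members, 2 of 16 IgM members and 5 of 16 IgG members, with summed levels of 181, 10.5 and 28.2 CPM. Sets of 3 values by class are given in the order IgA, IgM and IgG. With citrate buffer the 5 IgA members had 0, 4, 5, 5 and 7 Itgb7 UMIs, with LysoPS-OVA the 3 had 0, 2 and 5, and with free OVA the 10 ran from 0 to 6 with a median of 1.5, while no IgM or IgG member of any library exceeded 2. Its partner Itga4 was found in 15, 9 and 12 members at 1526, 178 and 311 CPM. The 5 IgA members of citrate buffer had 1, 7, 21, 33 and 49 Itga4 UMIs and the 3 of LysoPS-OVA 0, 64 and 84. Ccr10, the receptor for epithelial CCL28 and CCL27, was found in 10, 2 and 4 members at 162, 10.5 and 70.6 CPM, and 1 IgG member of free OVA had the most, 12 UMIs. Ccr9, the receptor for small intestinal CCL25, was found in 4, 1 and 2.

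Other genes also differed between the classes. All genes compared between classes were chosen after their values were seen, so their likeness to each other supports nothing. Tnfrsf17 (BCMA, a receptor for the survival factors APRIL and BAFF, and a gene of the rule) was found in 13 of 18 IgA, 2 of 16 IgM and 3 of 16 IgG members, Cd274 (PD-L1) in 11, 2 and 3, and Klf2, a factor of lymphocyte trafficking, in 12, 6 and 4. Pax5 went the other way with 2, 11 and 8 members, as did Ms4a1 with 7, 14 and 11, Ly6a with 9, 15 and 13, and the germinal centre genes Rgs13 with 0, 8 and 5 and Mef2b with 1, 8 and 7. A count of 0 of 18 for Rgs13 allows up to 18.5% of IgA members with a UMI, which does not limit how many express it. Depth differed between classes, with a median of 16465 UMIs in IgA, 9507 in IgM and 12446 in IgG members. After each member was thinned to 1500 UMIs outside immunoglobulin genes, the expected number of members with a UMI was 4.80, 0.243 and 1.57 for Itgb7, 3.78, 0.192 and 1.01 for Ccr10, 10.9, 3.93 and 6.58 for Itga4, and 0.734, 6.10 and 4.81 for Pax5. Among the members without Pax5 alone, Itgb7 was found in 12 of 16 IgA, 0 of 5 IgM and 4 of 8 IgG members and Ccr10 in 10, 0 and 2, whereas Rgs13 was found in none of them. The class of a member was read from the same cell as its genes, and with 3 to 10 members per class and library the planned test over libraries could not be made.

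**Figure D4:**
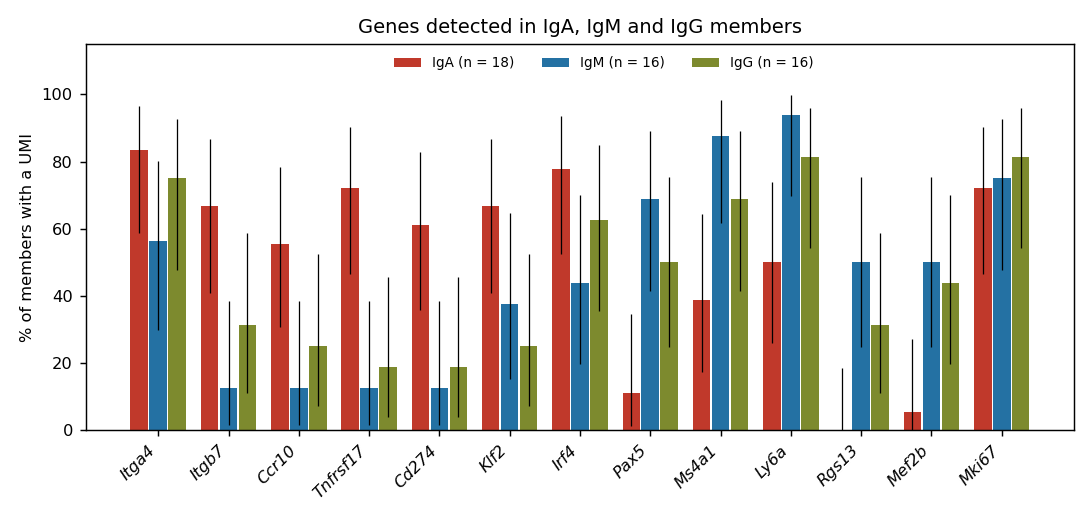
Percentage of IgA (n = 18), IgM (n = 16) and IgG (n = 16) members with at least 1 UMI of each gene, all libraries together, with exact binomial 95% intervals for counting error. Itgb7, Ccr10, Tnfrsf17 and Cd274 stand highest in IgA members, and Pax5, Ms4a1, Rgs13 and Mef2b lowest.

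Slpi, a secreted protease inhibitor of mucosal surfaces, followed IgG instead. It had a UMI in 13 of 16 IgG members, 4 of 18 IgA members and 4 of 16 IgM members, a split that was noticed after its values between libraries were seen. The 4 IgG members of LysoPS-OVA had 1, 24, 130 and 276 UMIs, the 6 of citrate buffer ran from 0 to 87 with a median of 17, and the 6 of free OVA from 0 to 29 with a median of 1. The highest free OVA member was an IgA member with 32 UMIs.

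Most members held proliferation transcripts. Mki67 or Top2a had a UMI in 16 of 18 members with citrate buffer (88.9%), 17 of 22 with free OVA (77.3%) and 7 of 10 with LysoPS-OVA (70%), 40 of 50 in all (80%, 66.3% to 90.0%). At 1500 UMIs outside immunoglobulin genes the expected shares were 47.2%, 39.9% and 43.4%. Mki67 stood at 423, 541 and 670 CPM in the members against 25.5, 8.10 and 6.72 CPM in B-like barcodes. It was found in 16 of 18 members with under 5% immunoglobulin UMIs, 13 of 17 with 5% to 20% and 9 of 15 with more.

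Between treatments the members differed in a limited set of genes. A gene was measured at 50 CPM and 30 UMIs in the higher library and called at 2-fold. The UMIs summed over members were fewest with LysoPS-OVA (10 members) and most with free OVA (22 members). In a smaller sum, 30 UMIs stand for a higher CPM. The filter thus admits genes lower with LysoPS-OVA more readily than genes higher with it, and the split between higher and lower is no result. Free OVA over citrate buffer had 93 of 1790 genes higher (5.2%) and 67 lower (3.74%), in all 160 (8.94%), LysoPS-OVA over citrate buffer 38 of 1010 higher (3.76%) and 104 lower (10.3%), in all 142 (14.1%), and LysoPS-OVA over free OVA 31 of 1629 higher (1.9%) and 161 lower (9.88%), in all 192 (11.8%). Among the members without Pax5, free OVA over citrate buffer had 33 genes higher, and LysoPS-OVA over free OVA had 47 higher and 74 lower. Among IgA members alone 39 genes were lower with free OVA than with citrate buffer, and 20 were higher and 53 lower with LysoPS-OVA than with citrate buffer. Without the deepest member of each library 52 genes were higher with LysoPS-OVA than with free OVA. The filter of 50 CPM and 30 UMIs was applied anew to each smaller set. These counts thus have other totals of measured genes and cannot be set against those of all members. The all-gene medians were 0.16, -0.07 and -0.20. The secretory lists stayed close to them. Of the 21, 20 and 19 measured ER chaperone genes 0, 1 and 1 were 2-fold higher and 0 lower, with medians of -0.17, -0.11 and 0.04 in the 3 comparisons in that order, and the translocon list gave -0.12, -0.23 and -0.02. Restricted to members without Pax5, the chaperone median of free OVA over citrate buffer was 0.42, and without the deepest member of each library that of LysoPS-OVA over citrate buffer was 0.45. The comparisons share libraries and are not independent of each other.

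A pair of genes among those highest in free OVA over citrate buffer was low with citrate buffer alone. Nuggc, a germinal centre GTPase gene, had 3, 37 and 10 UMIs (17.4, 102 and 71.2 CPM) in 1, 8 and 5 members (free OVA over citrate buffer 5.87, 1.86 to 29.8), and Casp8ap2 had 2, 37 and 11 UMIs (11.6, 102 and 78.4 CPM) in 2, 11 and 6 members (8.81, 2.27 to 75.5).

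With LysoPS-OVA, Slpi was among the highest genes over the other libraries and Bach2, Bank1, Aff3, Ly6a, Ltb and Plac8 were among the lowest. At least 2 Pax5 UMIs were found in 6 of 18, 6 of 22 and 1 of 10 members, and the part of this in the gene differences was not tested. Slpi stood at 1015, 276 and 3519 CPM in 5 of 18, 10 of 22 and 6 of 10 members. Per member it ran from 0 to 87 UMIs with citrate buffer (median 0), from 0 to 32 with free OVA (median 0) and from 0 to 276 with LysoPS-OVA (median 12.5), where 1 member gave 55.9% of all UMIs. LysoPS-OVA was 3.47 times citrate buffer (2.91 to 4.14) and 12.7 times free OVA (10.3 to 16.0), and free OVA was 0.272 times citrate buffer (0.211 to 0.350). Among IgA members alone none of the 5 with citrate buffer had a Slpi UMI and 3 of the 10 with free OVA did, which turns that last direction. Znrf3, a ubiquitin ligase that acts on Wnt receptors, stood at 278, 149 and 919 CPM with 67.4% of the last in 1 member. Lyz2, a macrophage lysozyme, had 33 UMIs with LysoPS-OVA, all in 1 member.

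Bach2, a repressor that delays plasma cell differentiation, had 0 to 40 UMIs per member with citrate buffer (median 2.5), 0 to 164 with free OVA (median 1) and 0 to 6 with LysoPS-OVA (median 2). The summed levels were 1073, 1130 and 135 CPM, so LysoPS-OVA was 0.126 times citrate buffer (0.0743 to 0.203) and 0.120 times free OVA (0.0714 to 0.190). The ranges overlapped, and among members without Pax5 the log2 ratios were 0.03 and 1.03, so the lower level was not seen there. Bank1, a B cell scaffold, stood at 719, 345 and 92.6 CPM, Aff3 at 580, 218 and 42.7 CPM and Ly6a at 934, 414 and 150 CPM. Among IgA members alone the log2 ratio of Ly6a for LysoPS-OVA over citrate buffer was 1.24, on few UMIs. The 3 LysoPS-OVA members had 0, 0 and 5 and the 5 citrate buffer members 0, 0, 1, 1 and 1. Bank1 was near level between the IgA members of LysoPS-OVA and free OVA (log2 0.062). Ltb (lymphotoxin β) had 39, 37 and 1 UMIs and Plac8 40, 35 and 2. The B cell identity list had medians of 0.00, -0.60 and -0.55, with 0 of 6, 2 of 5 and 1 of 6 measured genes 2-fold lower. Over all measured genes 3.74%, 10.3% and 9.88% were 2-fold lower in the same 3 comparisons.

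**Figure D5:**
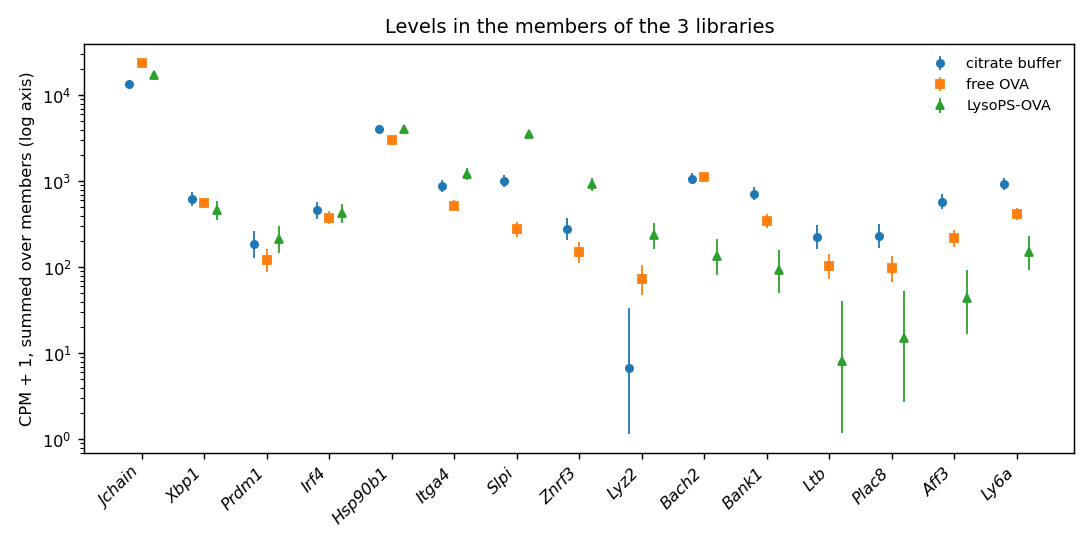
Summed CPM + 1 (log axis) of 15 genes over the members of each library, with exact Poisson 95% intervals for counting error. The genes at the left (Jchain to Hsp90b1) lie close together, Slpi and Znrf3 are highest with LysoPS-OVA, and Bach2, Bank1, Ltb, Plac8, Aff3 and Ly6a are lowest there.

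Survival genes and the integrin gene Itga4 were also compared between libraries. Of the 17 survival genes 3 were measured between LysoPS-OVA and citrate buffer. With LysoPS-OVA 2 of these 3 were 2-fold lower (list median -1.07), beside 104 of 1010 genes (10.3%) over all. Beside 161 of 1629 genes (9.88%) over all, 2 of 7 measured survival genes were 2-fold lower than with free OVA (-0.72). These 2 were Tnfrsf13b and Tnfrsf17, a gene of the rule, so that count and its median are not free of the rule. Tnfrsf13c (BAFF receptor) stood at 249, 141 and 78.4 CPM (LysoPS-OVA over citrate buffer 0.314, 0.146 to 0.620), Mcl1 at 371, 287 and 171 CPM (0.461, 0.275 to 0.747) and Tnfrsf13b (TACI) at 128, 202 and 92.6 CPM (LysoPS-OVA over free OVA 0.459, 0.233 to 0.835). Itga4 was at 893, 522 and 1218 CPM (LysoPS-OVA over free OVA 2.33, 1.89 to 2.88), with 49.1% of the LysoPS-OVA UMIs in 1 member.

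Regulatory cytokine genes were hardly seen. Il10 had 1, 0 and 2 UMIs over the members of the 3 libraries, Ebi3 3, 1 and 1, and Il12a and Gzmb 0 in each. Tgfb1 had 18, 18 and 4 UMIs. None of the 16 genes of that list reached the level needed for a comparison between libraries.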

How the data were processed

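Droplet 3' single-cell RNA libraries of pooled mesenteric lymph nodes were sequenced on an Illumina instrument after enzymatic digestion and dead cell removal, per the labels' protocols. The authors made the deposited count matrices (UMI counts per gene and barcode) with Cell Ranger 7.2.0 on the mm10 build, per the submitters' processing notes. The annotation version and the intron setting are not given in the sources used here.

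From these counts, members were selected by the rule in the report, with scanpy 1.11.5, pandas 2.3.3, scipy 1.17.1 and numpy 2.4.6 under Python 3.11.15. UMIs were summed over the members of a library and scaled to CPM over UMIs outside immunoglobulin genes. Log2 ratios used a pseudocount of 10 CPM, and genes below 50 CPM or 30 UMIs in the higher library were not measured. Shares carry exact Clopper-Pearson intervals, ratios of shares Katz intervals, levels exact Poisson intervals and folds conditional binomial intervals, all for counting error only, since cells are not replicates and each group is 1 library. Doublets were called per library with Scrublet (through scanpy) and were left out only as an alternative. The planned test between isotype classes needed at least 20 members per class and library and was not run, since 3 to 10 were found. The arithmetic was checked on simulated data. Genes were named by a rule: the 8 highest and 8 lowest ratios of each pair of libraries, the 5 extremes of LysoPS-OVA against both others, the genes of the rule and of the short lists where measured, the 5 farthest members of other lists and the variable genes used by most members, from which the text takes a selection. Some genes that this rule names are not reported here. Genes compared between isotype classes were chosen after their values were seen. The members and lists were chosen with earlier results of these data known. Promoters are RefSeq windows of GRCm38.p6.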

Additional observations from a re-analysis of the deposited data

How the results depend on the processing

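No paired analysis was possible because each group is 1 library, and for the same reason no library could be left out of a comparison. DESeq2 and the other variations on the test between isotype classes were not run, since that test was not. Restricting to members without Pax5, leaving out the deepest member of each library and all alternatives of the comparison with B-like barcodes were chosen after seeing the data. The cause of a change was not tested. All 21 alternative ratios of member shares kept to the main value within its interval, as did 16 of 18 IgA shares and 268 of 315 gene ratios. The intervals of the share ratios are wide, with ends from 0.290 to 2.57, so a ratio could hardly leave them. Member shares became 0.00954%, 0.0222% and 0.00687% (citrate buffer, free OVA, LysoPS-OVA) when barcodes were first thinned to 1500 UMIs, 0.157%, 0.264% and 0.119% of B-lineage barcodes, and 0.0304% with citrate buffer among members without Pax5. The thinned shares rest on a median of 2, 3 and 1 members over 20 random draws. Most members thus met the rule only at their full depth. The IgA share became 62.5% with citrate buffer without Pax5 and 3.70% with LysoPS-OVA after thinning. The draws behind that last share held 0 to 3 members. With the cell cycle list the cycling share of citrate buffer was 75.0%.

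Counts of genes moved most without a filter on low counts: 824 higher and 777 lower for free OVA over citrate buffer, 943 and 1524 for LysoPS-OVA over citrate buffer, and 647 and 1164 for LysoPS-OVA over free OVA. With per-cell means 117 were lower for free OVA over citrate buffer, and 51 higher and 243 lower for LysoPS-OVA over free OVA. With IgA members only, 39 were lower for free OVA over citrate buffer, and 20 higher and 53 lower for LysoPS-OVA over citrate buffer. Without Pax5, 33 were higher for free OVA over citrate buffer, and 47 higher and 74 lower for LysoPS-OVA over free OVA. Without the deepest members 52 were higher for LysoPS-OVA over free OVA. Each setting has its own total of measured genes, so these counts cannot be compared with each other as shares. Lists more than 0.5 log2 from the all-gene median numbered 2, 4 and 2 in the 3 comparisons. They numbered 4 and 1 for free OVA over citrate buffer and LysoPS-OVA over free OVA on CPM of all UMIs, 4 and 2 for free OVA and LysoPS-OVA over citrate buffer with IgA only, and, for LysoPS-OVA over free OVA, 0 without a filter, 1 at a Jchain minimum of 10 and 8 without the deepest members. Against B-like barcodes 484 genes, 17 of them translocon genes, were higher without a filter. With IgA only 45 were higher (8 chaperone and 4 translocon genes) and 443 lower (13 of B cell identity), and without Pax5 71 higher (7 translocon genes) and 425 lower (14 of B cell identity, a list that holds Pax5 itself).

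Directions that turned were Lyz2 in LysoPS-OVA over free OVA with per-cell means (log2 -0.73). With IgA only they were Slpi (4.52), Ltb (1.35) and Ly6a (1.70) in free OVA over citrate buffer, Lyz2 (-1.41) and Ly6a (1.24) in LysoPS-OVA over citrate buffer, and Lyz2 (-1.11) and Bank1 (0.062) in LysoPS-OVA over free OVA. Without Pax5 they were Ltb (0.64) in free OVA over citrate buffer and Bach2 in LysoPS-OVA over citrate buffer (0.032) and over free OVA (1.03). The Ly6a value of 1.24 with IgA only rests on 5 UMIs in 1 LysoPS-OVA member.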

Other observations

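The members of each library held transcripts of both sexes. Xist had 129, 61 and 74 UMIs in 9 of 18, 4 of 22 and 2 of 10 members of citrate buffer, free OVA and LysoPS-OVA. Y-linked genes had 24, 98 and 51 UMIs in 10, 13 and 7 members. Both were found in 3, 1 and 0 members, and neither in 2, 6 and 1. The proportions differ between the pools, and their part in the differences between libraries was not tested.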
